A study of Arabidopsis thaliana with 12 samples.

Results

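Seedlings of Arabidopsis thaliana that overexpress MINI ZINC FINGER 1 (MIF1OE) were compared with empty-vector seedlings after growth in darkness. The 6 dark arrays of the 12 arrays in the series were chosen by their titles, 3 for MIF1OE and 3 for vector. MIF1OE plants carried MIF1 behind 35S, a viral promoter that is active in most plant cells, so the transcript can be made in cells that do not normally make it. MIF1OE replicates 1 and 2 came from transgenic line 124 and replicate 3 from line 127. Vector replicates 1, 2 and 3 came from 3 independent transformants, lines 1, 4 and 7, of a vector written pRRR2222 or pRR2222 in the labels. All plants were of the T2 generation in the Columbia background. They were sown on medium with 50 µg/mL hygromycin, kept at 4 °C for 2 days, given 2 h of light to start germination, and grown upright in darkness at 22 °C for 7 days. Both groups were exposed to hygromycin, and plants that did not resist it were not sampled. The other 6 arrays held light-grown seedlings of the same lines, under 16 h of light and 8 h of darkness, and are used below where the effect in darkness is set against the effect in light.

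MIF1 belongs to a small plant family of short proteins that carry a zinc finger related to that of zinc finger homeodomain proteins, but have no homeodomain to bind DNA. MIF proteins can pair with zinc finger homeodomain proteins, and Arabidopsis plants that overexpress MIF1 are known to be dwarfed and to respond abnormally to several hormones. A seedling in darkness is etiolated: it lives on reserves laid down in the seed, its hypocotyl elongates quickly by loosening and extending cell walls, and its plastids stay without the photosynthetic apparatus until light arrives. Seed proteins, wall proteins and plastid genes are among the functions described below, in lists chosen with earlier results of these data known.

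Biotin-labelled RNA was read on Affymetrix ATH1 arrays, on which each probe set gives 1 linear intensity with no stated unit. The trimmed mean intensity was 150.01 on each array, which reflects the scaling by the authors' software, and the median on the dark arrays lay between 64.5 and 70.4. Pearson correlations of log2 values were 0.957 to 0.959 among the MIF1OE arrays, 0.955 to 0.961 among the vector arrays and 0.875 to 0.905 between the groups. No probe set was named as MIF1 in the annotation used here, nor as any of the other MIF and zinc finger homeodomain genes, so the transgene could not be measured by name and the labels were not checked in that way. In RNA from pooled tissue, fewer cells of a type and less RNA per cell cannot be told apart. Below, 3 values of a group are in the order of its replicates, so that the third MIF1OE value is that of line 127. Genes are named by symbol where the tables hold one and otherwise by locus, and the roles given for loci are general knowledge of Arabidopsis, not content of the tables.

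In darkness, 2052 of 15922 tested probe sets, which is 12.9% of them, differed between MIF1OE and vector seedlings at an adjusted p under 0.05 in limma, and are described as called. Differences are on the log2(intensity + 7) scale, which understates the change of dim genes. Of these, 978 (6.14%) were higher and 1074 (6.75%) were lower in MIF1OE seedlings. The change was at least 2-fold for 1036 probe sets, 465 higher and 571 lower. Changes of 8-fold or more numbered 47 among the higher and 22 among the lower probe sets. The 3 MIF1OE arrays lay wholly on one side of the 3 vector arrays for 5763 probe sets (36.2%), and 2029 of the 2052 called probe sets were among them. The median log2 difference over all tested probe sets was -0.002, and the median absolute difference was 0.279. In light, 157 probe sets (0.986%) passed the same test. When 1 dark array was left out, the count in darkness was 1307, 1308 and 1069 without MIF1OE arrays 1, 2 and 3, and 1357, 1146 and 1071 without vector arrays 1, 2 and 3. The test took the 3 MIF1OE arrays as independent, although 2 of them came from the same line, 124. With line as a random replicate block the count in darkness was 1725.

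**Figure D1:**
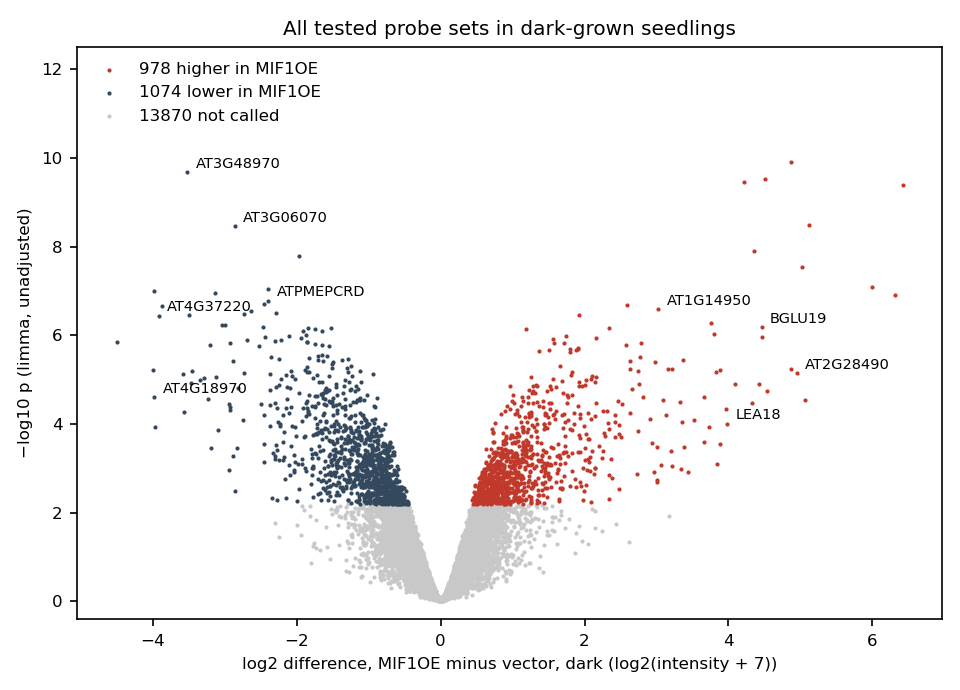
Each point is 1 of the 15922 tested probe sets. The horizontal axis is the log2 difference, MIF1OE minus vector, in dark-grown seedlings, and the vertical axis is −log10 of the unadjusted p in limma. The 978 higher and 1074 lower probe sets at an adjusted p under 0.05 are coloured, and 9 named genes are labelled, from AT4G18970 at -3.98 to AT2G28490 at 4.95.

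Transcripts of proteins made in maturing seeds were among the largest rises. Of the 25 genes with the largest rises that were called, did not overlap between groups and had 1 name, 6 encode late embryogenesis abundant (LEA) proteins, which accumulate in drying seeds, and 5 are oleosins or seed cupins, which coat oil bodies or store nitrogen. AT2G28490, a seed cupin, had intensities of 1380.4, 733 and 194 in MIF1OE seedlings, against 18.8, 18.2 and 3.8 in vector seedlings. This is a log2 difference of 4.95 ± 0.66 (SE, adjusted p = 0.00104 in limma), or 30.9-fold on that scale. BGLU19 (AT3G21370), a beta-glucosidase, measured 1190.3, 510.0 and 249 in MIF1OE seedlings, against 19.1, 22.3 and 12.4 in vector seedlings, a log2 difference of 4.46 ± 0.47 (SE, adjusted p = 3.3e-04 in limma). The dimmest MIF1OE array was 10.3 times as bright as the brightest vector array for AT2G28490 and 11.2 times for BGLU19.

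**Figure D2:**
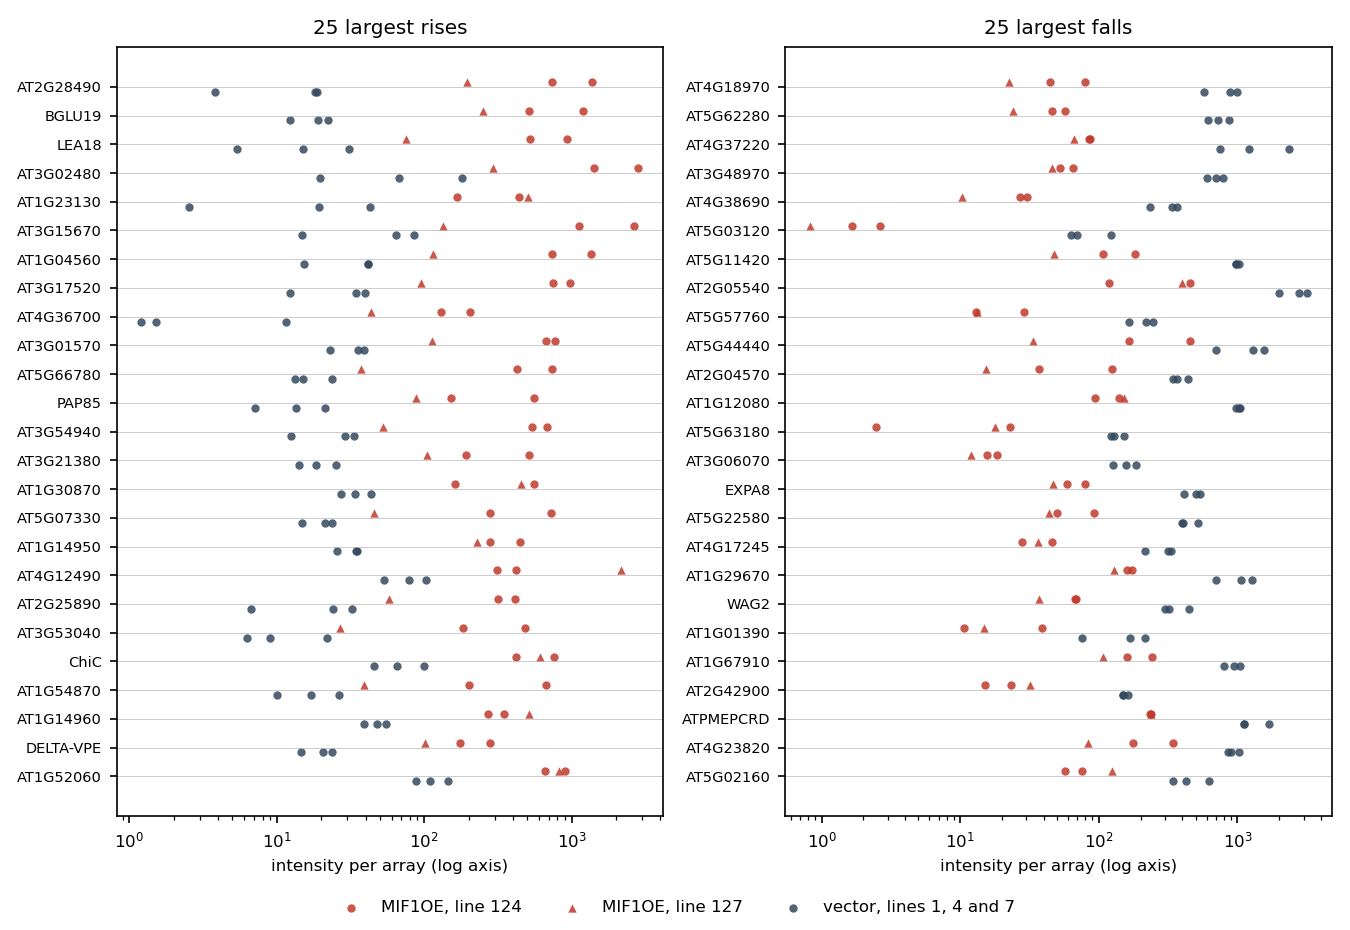
Intensity per array on a log axis for the 25 genes with the largest rises (left) and the 25 with the largest falls (right), ordered by log2 difference. Red circles are MIF1OE line 124, red triangles MIF1OE line 127 and dark circles the vector lines. No gene overlaps between groups, which the choice of genes required. In 19 of the 25 rises the line 127 array is the MIF1OE array nearest to the vector arrays, against 4 of the 25 falls.

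The list of LEA proteins and dehydrins had 18 measured genes, of which 13 rose, 1 fell and 4 did not pass the test. Their median log2 difference was 1.75, and 77.8% were called, against 12.9% over all probe sets. The other 18 of 36 named members were left out by the filter on mean intensity, which a gene bright in MIF1OE alone could pass for that reason, so these counts describe the genes that passed. Over all 36 with no filter, 17 rose, 2 fell and the median was 1.38. LEA18 (AT2G35300) measured 522, 934 and 75.5 in MIF1OE seedlings, against 30.9, 15.1 and 5.33 in vector seedlings, a log2 difference of 3.99 ± 0.70 (SE, adjusted p = 0.00433 in limma). AT3G02480, another LEA protein, measured 1426, 2840.0 and 291 in MIF1OE seedlings, against 182, 68 and 19.6 in vector seedlings, a log2 difference of 3.89 ± 0.77 (SE, adjusted p = 0.00805 in limma). AT3G17520 measured 744, 983 and 94.4 in MIF1OE seedlings, against 39.7, 34.6 and 12.4 in vector seedlings, a log2 difference of 3.66 ± 0.72 (SE, adjusted p = 0.00769 in limma). In these 3 genes the groups did not overlap, and line 127 was the lowest of the MIF1OE arrays. DI21 (AT4G15910), a drought-induced LEA protein, was more even between the lines at 943, 1120.1 and 566 in MIF1OE seedlings, against 231, 158 and 196 in vector seedlings, a log2 difference of 2.09 ± 0.29 (SE, adjusted p = 0.00122 in limma). AtLEA4-1 (AT1G32560) rose by 2.36 and AT3G15670 by 3.84 on the log2 scale. COR47 (AT1G20440), a cold- and drought-regulated dehydrin of vegetative tissue, was the member that fell, at 1283, 1151 and 1077 in MIF1OE seedlings, against 1846, 2624 and 2360.0 in vector seedlings, a log2 difference of -0.94 ± 0.21 (SE, adjusted p = 0.0131 in limma). LTI30 (AT3G50970), another dehydrin, rose by 1.33 (adjusted p = 0.0446 in limma), although the vector array of line 7 reached 726 and overlapped with the MIF1OE values of 606, 1288 and 819.9. AT4G38410, AT2G44060, AT1G54410 and COR15B had differences of 0.53, 0.40, 0.28 and 0.19 and did not pass. Calls were lost for AT3G15670 without MIF1OE array 1 or without vector array 3 (adjusted p up to 0.0599), AtLEA4-1 without vector array 3 (adjusted p up to 0.0532) and COR47 without MIF1OE array 3 or without vector array 2 (adjusted p up to 0.0545), and for LTI30 under 8 of 15 alternative settings (adjusted p up to 0.162).

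Oleosins, caleosins and seed cupins were represented by 7 measured genes, with 5 rises, 1 fall and a median of 3.33. Among them 85.7% were called, against 12.9% over all probe sets. Over all 11 named members with no filter, 7 rose, none fell and the median was 2.70. PAP85 (AT3G22640), a vicilin-like storage protein, measured 554, 152 and 87.4 in MIF1OE seedlings, against 13.5, 21.3 and 7.1 in vector seedlings, a log2 difference of 3.33 ± 0.52 (SE, adjusted p = 0.0023 in limma). The oleosin AT3G01570 measured 765, 668 and 113 in MIF1OE seedlings, against 39.3, 35.7 and 22.9 in vector seedlings, a log2 difference of 3.35 ± 0.58 (SE, adjusted p = 0.00418 in limma), and the oleosin AT2G25890 measured 315, 412 and 57.4 in MIF1OE seedlings, against 32.2, 24.1 and 6.64 in vector seedlings, a log2 difference of 3.01 ± 0.61 (SE, adjusted p = 0.00889 in limma). No MIF1OE array overlapped with a vector array in these 3 genes. The cupin AT4G36700 measured 130.2, 205 and 43.3 in MIF1OE seedlings, against 11.5, 1.51 and 1.21 in vector seedlings and rose by 3.38. OLEO3, also an oleosin, went the other way and measured 44.1, 119.8 and 28.7 in MIF1OE seedlings, against 319.6, 256 and 78.3 in vector seedlings, a log2 difference of -1.66 ± 0.49 (SE, adjusted p = 0.044 in limma), with overlap of the groups. That fall lost its call in limma under 8 of 14 alternative settings (adjusted p up to 0.162), the fit of the 6 dark arrays alone included (adjusted p = 0.0886). AT1G07750, a cupin, measured 620.3, 745 and 787 in MIF1OE seedlings, against 583, 491 and 477 in vector seedlings and did not pass (adjusted p = 0.173 in limma).

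Other proteins of seeds and germinating seedlings rose beside these lists. DELTA-VPE (AT3G20210), a vacuolar processing protease of the seed coat, measured 279, 175 and 101 in MIF1OE seedlings, against 23.7, 20.6 and 14.6 in vector seedlings, a log2 difference of 2.75 ± 0.39 (SE, adjusted p = 0.00139 in limma). AT3G54940, a papain-type cysteine protease, rose by 3.21, and AT1G54870, an oxidoreductase of the short-chain type, by 2.96. AT1G04560, a membrane protein of the AWPM-19 type, measured 734, 1356 and 115 in MIF1OE seedlings, against 41.3, 41.9 and 15.3 in vector seedlings, a log2 difference of 3.73 ± 0.67 (SE, adjusted p = 0.00485 in limma). ICL, isocitrate lyase of the glyoxylate cycle that turns seed oil into sugar, was already bright in vector seedlings and measured 3352, 4756 and 2317 in MIF1OE seedlings, against 632, 1001 and 791 in vector seedlings, a log2 difference of 2.06 ± 0.40 (SE, adjusted p = 0.00698 in limma). The other 2 measured genes of oil mobilisation did not pass the test: SDP1, a lipase that opens oil bodies, differed by -0.39, and AIM1, a fatty acid oxidation enzyme, by 0.06. The calls were lost for AT3G54940 without MIF1OE array 1 or 2 or without vector array 3 (adjusted p up to 0.0604) and AT1G54870 without MIF1OE array 2 or without vector array 3 (adjusted p up to 0.0669).

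The seed proteins were nearer to the vector level on the array of line 127 than on those of line 124. Set against the mean of the 3 vector arrays, the median over the LEA list was 2.02 and 2.24 on the line 124 arrays and 0.89 on the line 127 array, and the vector arrays lay between -0.25 and 0.39. For the oleosin and cupin list the medians were 3.66 and 4.03 in line 124 and 1.63 in line 127, with vector arrays between -0.52 and 0.43. The line 127 array was below both line 124 arrays in 13 of 18 LEA genes and in 6 of 7 oleosin and cupin genes, against 36.4% of all tested probe sets. Line 127 has 1 dark array, so this difference between lines has no test. With line 127 as the only dark MIF1OE array, 452 probe sets passed in limma instead of 2052, in a fit that takes this lone array to vary like the other groups.

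**Figure D3:**
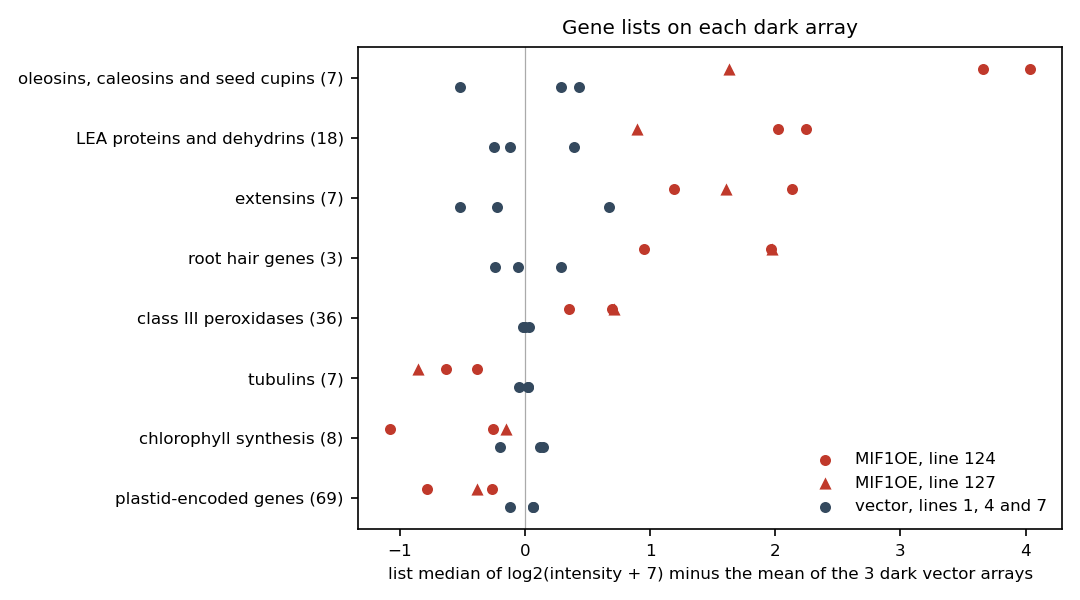
Median of each gene list drawn, on each of the 6 dark arrays, as log2(intensity + 7) minus the mean of the 3 vector arrays, with the number of measured genes in brackets. Red circles are MIF1OE line 124, red triangles MIF1OE line 127 and dark circles the vector lines. For LEA proteins line 127 sits at 0.89 against 2.02 and 2.24 in line 124, whereas for root hair genes it sits at 1.98 against 0.95 and 1.97.

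All 3 measured root hair genes, 11 of 36 secreted peroxidases and 4 of 7 extensins rose in dark-grown MIF1OE seedlings, against 6.14% of all probe sets. The root hair list held 21 loci, of which only these 3 were named here, and AT1G30870 is counted among the peroxidases too. AT1G30870, a root hair peroxidase, measured 162, 554 and 455 in MIF1OE seedlings, against 33.9, 43.5 and 27.4 in vector seedlings, a log2 difference of 3.09 ± 0.48 (SE, adjusted p = 0.0022 in limma). EXPA7, an expansin of root hairs, measured 36.3, 69.5 and 81.2 in MIF1OE seedlings, against 14.4, 15.5 and 16.4 in vector seedlings, a log2 difference of 1.56 ± 0.26 (SE, adjusted p = 0.00325 in limma), and EXPA18, the other root hair expansin, measured 59, 147 and 138 in MIF1OE seedlings, against 30.9, 41.3 and 26.3 in vector seedlings, a log2 difference of 1.53 ± 0.31 (SE, adjusted p = 0.00905 in limma). The groups did not overlap in any of the 3. PYK10, the abundant beta-glucosidase of root ER bodies, measured 4904, 4995 and 5002 in MIF1OE seedlings, against 4194, 5010.5 and 4264 in vector seedlings (0.15, adjusted p = 0.585 in limma). NAI1 and NAI2, which shape ER bodies, differed by 0.38 and 0.24 and did not pass. The root markers used as a check, of which 3 of 8 were measured (PYK10, EXPA7 and EXPA18), summed to 4999 to 5221 in MIF1OE and 4239 to 5067 in vector seedlings, with none of the 3 at 0. PYK10 makes up nearly all of each sum, so the sums say little about EXPA7 and EXPA18. A different share of root tissue in the samples was not tested.

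Class III peroxidases are secreted enzymes that cross-link or loosen cell walls, and 36 were measured: 11 rose, 3 fell and 22 did not pass, with a median of 0.65. The called share was 38.9%, against 12.9% over all probe sets. Over all 55 named members with no filter, 12 rose, 3 fell and the median was 0.43. AT5G17820 measured 669, 931 and 1019.9 in MIF1OE seedlings, against 145, 261 and 175 in vector seedlings, a log2 difference of 2.15 ± 0.30 (SE, adjusted p = 0.00131 in limma). AT3G01190 measured 736, 608 and 820.2 in MIF1OE seedlings, against 162, 266 and 184 in vector seedlings, a log2 difference of 1.81 ± 0.24 (SE, adjusted p = 0.0011 in limma). AT4G26010, expressed in root hairs, rose by 2.48 and AT2G39040 by 1.85. Calls went both ways, and AT1G71695 fell by 1.13 on the log2 scale at 207, 185 and 145 in MIF1OE seedlings, against 425, 341 and 427 in vector seedlings (adjusted p = 0.00219 in limma). AT2G37130, the brightest of the peroxidases named here, measured 1989, 1089 and 2297 in MIF1OE seedlings, against 3274, 4014 and 3663 in vector seedlings, and its difference of -1.09 did not pass in darkness (adjusted p = 0.0566 in limma).

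Extensins are hydroxyproline-rich glycoproteins that build a protein network in the wall. Of 7 measured, 4 rose (57.1% called, against 12.9% over all probe sets), none fell and the median was 1.66. HRGP1 measured 819.5, 414 and 490.4 in MIF1OE seedlings, against 103, 125 and 63.2 in vector seedlings, a log2 difference of 2.47 ± 0.38 (SE, adjusted p = 0.0022 in limma), and AT3G54580 measured 139, 75 and 111 in MIF1OE seedlings, against 6.22, 38.3 and 8.48 in vector seedlings, a log2 difference of 2.42 ± 0.42 (SE, adjusted p = 0.00417 in limma). Neither gene overlapped between groups. AT1G23720 rose by 1.86 and AT5G06630 by 1.66, whereas AT4G08410, AT2G43150 and AT1G26250 differed by 0.75, 0.28 and -0.21 and did not pass. Extensin genes are repetitive and near-identical in parts, so a probe set may read more than 1 of them. Calls were lost for AT1G23720 without MIF1OE array 1 or without vector array 1 or 3 (adjusted p up to 0.0816) and AT5G06630 without MIF1OE array 1 or without vector array 3 (adjusted p up to 0.0601).

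Other genes among the largest rises came from several families. The jacalin-type lectins AT3G21380 and AT1G52060 rose by 3.13 and 2.74, and AT1G52060 measured 895, 659 and 824 in MIF1OE seedlings, against 109, 146 and 87.3 in vector seedlings. They were named as members of the 25 largest rises, and the list of jacalin lectins does not hold them. None of its 3 measured genes, JAL22, JAL33 and JAL34, passed in limma (none at an unadjusted p under 0.05 either), with a median of 0.15. AT1G52070, a jacalin-type lectin also outside that list, rose by 2.42 (adjusted p = 0.00324 in limma). The lipid-binding proteins AT1G23130, AT1G14950 and AT1G14960, of the Bet v 1 type, rose by 3.88, 3.03 and 2.78. AT1G14950 measured 447, 279.9 and 229.8 in MIF1OE seedlings, against 34.6, 35 and 25.5 in vector seedlings and had the smallest adjusted p among the 25 rises (2.1e-04 in limma). Among 5 measured defence genes 3 rose, against 12.9% called over all probe sets. ChiC (AT4G19810), a chitinase, measured 758, 417 and 614 in MIF1OE seedlings, against 65.8, 99.8 and 45.6 in vector seedlings, a log2 difference of 2.98 ± 0.38 (SE, adjusted p = 7.5e-04 in limma). OSM34, an osmotin, measured 3629.8, 2959 and 3777 in MIF1OE seedlings, against 1352, 1784 and 1248 in vector seedlings, a log2 difference of 1.25 ± 0.30 (SE, adjusted p = 0.0186 in limma). PDF1.4, a defensin-like protein, rose by 1.26 but overlapped between groups, and THI2.2 and WRKY53 differed by -0.43 and 0.17 without passing. The OSM34 call was lost without MIF1OE array 1 or 3 or without vector array 1 or 3 (adjusted p up to 0.0679), and the PDF1.4 call under 8 of 15 alternative settings (up to 0.158). AT4G12490, a lipid transfer-type protein, was brightest on the line 127 array, at 423, 312 and 2152 in MIF1OE seedlings, against 102, 53 and 79.4 in vector seedlings, and its call was lost without MIF1OE array 3 or without vector array 2 or 3 (adjusted p up to 0.0821).

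Several of the largest falls were in genes that were bright in dark-grown vector seedlings. A gene that is dim there cannot fall far on the log2(intensity + 7) scale, so the ranking favours bright genes. AT4G18970, a GDSL-type lipase, measured 44.3, 79.1 and 22.6 in MIF1OE seedlings, against 878, 995 and 573 in vector seedlings, a log2 difference of -3.98 ± 0.60 (SE, adjusted p = 0.002 in limma). AT4G37220, of the cold-acclimation WCOR413 type, measured 85.2, 86.9 and 65.8 in MIF1OE seedlings, against 747, 2358 and 1213 in vector seedlings, a log2 difference of -3.92 ± 0.39 (SE, adjusted p = 2.2e-04 in limma). AT3G48970, a metal-binding protein of the heavy-metal-associated type, measured 65, 52.6 and 46.3 in MIF1OE seedlings, against 780.1, 703 and 607 in vector seedlings, a log2 difference of -3.52 ± 0.18 (SE, adjusted p = 1.3e-06 in limma), the smallest adjusted p among the 25 falls. The dimmest vector array was 7.25, 8.6 and 9.35 times as bright as the brightest MIF1OE array for these 3 genes. AT5G62280 fell by 3.97, AT4G38690, of the phospholipase C-like type, by 3.50, and AT5G11420, a cell wall protein of the DUF642 family, by 3.24 on the log2 scale. Further GDSL-type lipases, AT2G04570 and AT1G29670, fell by 2.93 and 2.63. AT5G03120 was dim in MIF1OE seedlings, at 1.65, 2.65 and 0.827, against 69.8, 62.8 and 122 in vector seedlings.

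Single genes that modify pectin and other wall polymers were among the 25 largest falls. The list of pectin-modifying enzymes, which does not hold them, had 3 measured genes, of which none passed in limma (1 at an unadjusted p under 0.05), with a median of -0.02. ATPMEPCRD (AT2G43050), a pectin methylesterase, measured 239, 232 and 239.7 in MIF1OE seedlings, against 1116, 1679 and 1105 in vector seedlings, a log2 difference of -2.39 ± 0.22 (SE, adjusted p = 1.6e-04 in limma). The pectin lyase-like genes AT5G63180 and AT4G23820 fell by 2.88 and 2.37 on the log2 scale. EXPA8, an expansin, measured 58.8, 80 and 46.7 in MIF1OE seedlings, against 409, 504 and 536 in vector seedlings, a log2 difference of -2.85 ± 0.78 (SE, adjusted p = 0.0335 in limma). Every MIF1OE value of these genes was below every vector value, which the choice of the 25 largest falls required. The EXPA8 call depended on the fit: the adjusted p was 0.000499 with the 6 dark arrays alone and up to 0.104 in the 9 of 15 settings that lost it, each of the 6 settings that left out 1 array among them.

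Expansins loosen walls during growth, and the 14 measured showed both directions: EXPA7 and EXPA18 rose, EXPA8 and EXLA2 fell, 10 did not pass, and the median was -0.14. This is 28.6% called, against 12.9% over all probe sets. EXLA2, an expansin-like protein, measured 24.6, 34 and 33.5 in MIF1OE seedlings, against 91, 124 and 115 in vector seedlings, a log2 difference of -1.63 ± 0.44 (SE, adjusted p = 0.0302 in limma), and lost its call in 8 of 14 settings, each setting that left out 1 array among them. EXPA4 measured 522, 652 and 269 in MIF1OE seedlings, against 976, 894 and 806 in vector seedlings and did not pass (adjusted p = 0.16 in limma). None of 7 xyloglucan endotransglucosylase/hydrolases, which cut and rejoin hemicellulose, passed in limma (3 at an unadjusted p under 0.05), and all 7 differences were negative, with a median of -0.61. Over all 10 named members with no filter, 1 dim member rose and the median was -0.43. Among the 7, XTH20 and XTH16 had differences of -0.91 ± 0.31 and -0.98 ± 0.34 (SE) with an adjusted p of 0.0723 and 0.0775. Among 7 measured endoglucanases of family GH9, 1 rose, 2 fell and 4 did not pass (42.9% called, against 12.9% over all probe sets). Over all 15 named members with no filter, 1 rose, 2 fell and the median was -0.05. GH9C1 rose by 1.92, at 86.6, 160.3 and 135 in MIF1OE seedlings, against 22.5, 41.8 and 21.6 in vector seedlings. GH9C2 fell by 1.96, at 330.4, 513 and 148 in MIF1OE seedlings, against 1108, 1127 and 1264 in vector seedlings, and GH9B7 fell by 0.71. Calls were lost for GH9C2 without MIF1OE array 1 or 3 or without vector array 1, 2 or 3 (adjusted p up to 0.12) and GH9B7 without MIF1OE array 1 or 3 or without vector array 1 or 3 (adjusted p up to 0.0814).

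Tubulins, the subunits of the microtubules along which cellulose is laid down, fell or did not pass: 3 of 7 fell, none rose, and the median was -0.68. That is 42.9% called, against 12.9% over all probe sets. TUB6 measured 514, 511 and 398 in MIF1OE seedlings, against 983, 1129 and 883 in vector seedlings, a log2 difference of -1.07 ± 0.18 (SE, adjusted p = 0.00366 in limma). TUA1 measured 123, 123 and 123 in MIF1OE seedlings, against 201, 244 and 300.2 in vector seedlings, a log2 difference of -0.95 ± 0.19 (SE, adjusted p = 0.00858 in limma). TUB5 fell by 0.68, and TUA6, TUB7 and TUB1 had differences of -0.52, -0.49 and -0.72 that did not pass. All 7 tubulin differences were negative. Tubulin genes are near-identical copies, so their probe sets may share signal. COB, the one measured gene of the cellulose list and a protein that guides cellulose fibrils, fell by 0.58 (adjusted p = 0.0466 in limma), a call that 10 of 15 settings did not keep, the 6 dark arrays alone included (adjusted p = 0.0568).

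**Figure D4:**
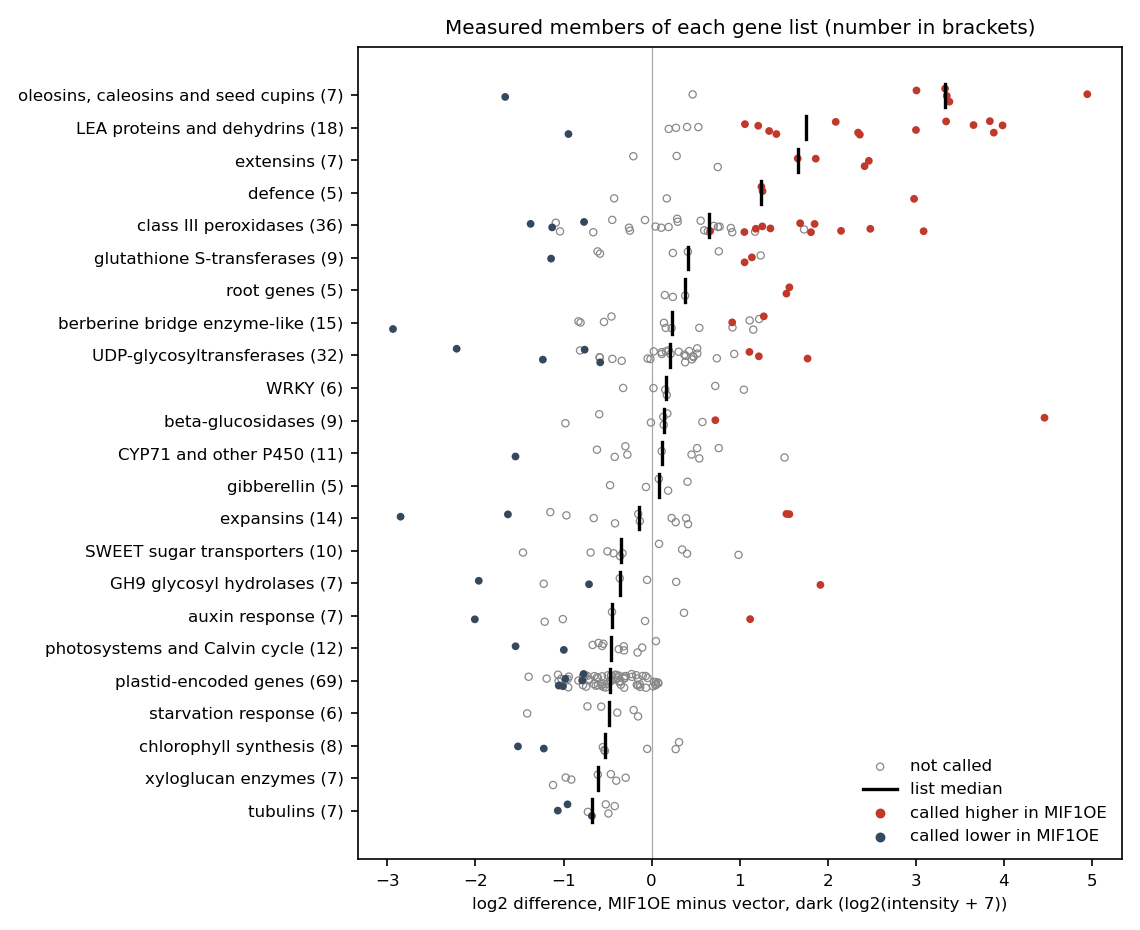
Log2 difference, MIF1OE minus vector, in darkness for each measured gene of 23 lists, those treated in the text that had 5 or more measured genes. Lists matched on words that repeated another list or took in unrelated genes are not drawn, nor are the bHLH and phenylpropanoid lists, whose counts stand in the text. Red and dark filled points are called higher and lower, open points are not called, and the black bar is the list median. Medians run from 3.33 for oleosins, caleosins and seed cupins to -0.68 for tubulins.

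Lists of plastid functions had negative medians in MIF1OE against vector seedlings, with few single genes past the test. Of 8 genes of chlorophyll synthesis 2 fell (25%, against 12.9% called over all probe sets) and none rose, with a median of -0.53. PORB, the light-dependent protochlorophyllide reductase, measured 391, 813 and 549 in MIF1OE seedlings, against 1916, 1562 and 1407 in vector seedlings, a log2 difference of -1.52 ± 0.27 (SE, adjusted p = 0.00472 in limma). CHLM, which methylates magnesium protoporphyrin, measured 342, 386 and 476 in MIF1OE seedlings, against 1038, 854 and 931 in vector seedlings, a log2 difference of -1.22 ± 0.17 (SE, adjusted p = 0.0011 in limma). The groups did not overlap in either gene. HEME1, HEME2 and CHLI2 had differences of -0.55, -0.53 and -0.54 and did not pass. On single arrays the list median, set against the vector mean, was -1.08 and -0.26 in line 124 and -0.15 in line 127, and between -0.20 and 0.15 on the vector arrays, so the groups overlapped.

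Of 12 nuclear genes of the photosystems and the Calvin cycle 2 fell (16.7%, against 12.9% called over all probe sets), 10 did not pass, and the median was -0.46. On single arrays the list median, set against the vector mean, was -0.70 and -0.37 in line 124 and -0.08 in line 127, against 0.35, -0.44 and 0.10 on the vector arrays, so the groups overlapped. PRK, phosphoribulokinase of the Calvin cycle, measured 227, 435 and 481 in MIF1OE seedlings, against 1208, 966 and 1053 in vector seedlings, a log2 difference of -1.54 ± 0.24 (SE, adjusted p = 0.00221 in limma). PSB27, an assembly factor of photosystem II, measured 421, 686 and 641 in MIF1OE seedlings, against 1418, 849 and 1245 in vector seedlings and fell (adjusted p = 0.0138 in limma). The antenna genes LHCB4.1, LHCB4.2 and LHCB4.3, used as mesophyll markers (3 of 8 measured), summed to 2818 to 3810 in MIF1OE and 3225 to 5348 in vector seedlings and were not called. Among 69 probe sets named as plastid-encoded genes 5 fell, a share below the 12.9% called over all probe sets, none rose (none at an unadjusted p under 0.05 in limma either), 62 differences were negative and the median was -0.47. The single-array medians of these 69 were -0.78, -0.26 and -0.38 in MIF1OE and lay between -0.12 and 0.07 in vector seedlings. psbF, psbL, psbJ and psbE, which are transcribed together, fell by 1.05, 0.77, 0.79 and 0.98, and psaC by 1.01 on the log2 scale. psbF measured 922, 1131 and 1222 in MIF1OE seedlings, against 2398, 1998 and 2405 in vector seedlings, a log2 difference of -1.05 ± 0.21 (SE, adjusted p = 0.00758 in limma). Calls were lost for PSB27 without vector array 1 or 3 (adjusted p up to 0.054), psbL without MIF1OE array 1 or 3 or without vector array 1, 2 or 3 (adjusted p up to 0.0805) and psbJ without MIF1OE array 1 or without vector array 1 or 3 (adjusted p up to 0.0892), and psbE and psaC lost theirs in 7 of 15 settings each (up to 0.142 and 0.126).

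Auxin genes showed opposite calls. IAA29, an auxin-inducible repressor of auxin signalling, measured 19.5, 12.2 and 17.5 in MIF1OE seedlings, against 43.6, 143 and 99.7 in vector seedlings, a log2 difference of -2.01 ± 0.38 (SE, adjusted p = 0.00635 in limma). IAA18, a repressor of the same family, measured 204, 169 and 165 in MIF1OE seedlings, against 285, 282 and 331 in vector seedlings, a log2 difference of -0.72 ± 0.14 (SE, adjusted p = 0.0084 in limma). GH3.17, which joins auxin to an amino acid, rose at 912, 621 and 662 in MIF1OE seedlings, against 241, 449.6 and 326 in vector seedlings, a log2 difference of 1.12 ± 0.29 (SE, adjusted p = 0.0257 in limma). WAG2, a protein kinase that directs auxin transport, measured 68, 67.1 and 37.2 in MIF1OE seedlings, against 299, 451 and 322 in vector seedlings, a log2 difference of -2.52 ± 0.29 (SE, adjusted p = 4.4e-04 in limma). HAT2, an auxin-inducible homeodomain protein, differed by -1.21 (adjusted p = 0.063 in limma) and did not pass. Of 7 genes in the auxin response list, which holds IAA29, GH3.17 and HAT2, 1 rose, 1 fell and 5 did not pass. Their median was -0.45, and 28.6% were called, against 12.9% over all probe sets. With no filter, its 11 named members held 1 rise and 2 falls, with a median of -0.90. In the same fit 3 of 7 named Aux/IAA and other auxin-responsive genes and 2 of 2 named small auxin-up RNA (SAUR) genes fell, and none rose. Over all probe sets, 981 of 22746 fell in the fit with no filter. The filter of the main fit left out 5 of these 7 genes and the 2 SAUR genes as dim. The SAUR list held 64 loci, of which only these 2 were named here. The GH3.17 call was lost without MIF1OE array 1 or 3 or without vector array 1 or 3 (adjusted p up to 0.091).

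None of 5 measured gibberellin genes passed in limma (1 at an unadjusted p under 0.05), and GID1B, a gibberellin receptor, differed by 0.41 at 214, 197 and 207 in MIF1OE seedlings, against 144, 158 and 159 in vector seedlings. Of 3 GASA genes, small cysteine-rich proteins regulated by gibberellin, 1 fell (33.3%, against 12.9% called over all probe sets). It was AT2G14900, at 263, 284 and 249 in MIF1OE seedlings, against 941, 879.6 and 814 in vector seedlings, a log2 difference of -1.70 ± 0.21 (SE, adjusted p = 7.2e-04 in limma). HYH, a bZIP factor of photomorphogenesis, was one of 2 measured light-signalling genes, overlapped between groups and differed by -1.27 (adjusted p = 0.206 in limma). Of 6 bHLH factors, bHLH121 fell by 0.90 (adjusted p = 0.00958 in limma) and 5 did not pass (16.7% called, against 12.9% over all probe sets). Among 5 phenylpropanoid genes none passed in limma (1 at an unadjusted p under 0.05). None of 6 WRKY factors and none of 6 starvation genes passed in limma (1 and 2 at an unadjusted p under 0.05), and MCCA, an enzyme of leucine breakdown, had the largest starvation difference at -1.41 (adjusted p = 0.0715 in limma).

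Families of enzymes that act on small molecules held calls in both directions. Of 32 UDP-glycosyltransferases, which attach sugars to hormones and secondary compounds, 3 rose and 4 fell (21.9% called, against 12.9% over all probe sets), with a median of 0.20. UGT76E2 measured 27.1, 31.7 and 18.1 in MIF1OE seedlings, against 137, 176 and 118 in vector seedlings, a log2 difference of -2.21 ± 0.25 (SE, adjusted p = 4.2e-04 in limma), and UGT71C1 measured 209.9, 225 and 234 in MIF1OE seedlings, against 55.8, 76.6 and 51 in vector seedlings, a log2 difference of 1.77 ± 0.27 (SE, adjusted p = 0.002 in limma). The groups did not overlap in either. Of 9 glutathione S-transferases 2 rose and 1 fell (33.3% called, against 12.9% over all probe sets). GSTU26 and GSTU28 rose by 1.14 and 1.06, and GSTF4 fell by 1.14. Of 11 cytochrome P450 genes 1 passed (9.09%, a share below the 12.9% called over all probe sets). It was CYP71B5, at 17.4, 18.7 and 18.5 in MIF1OE seedlings, against 67.3, 53 and 83.1 in vector seedlings, a log2 difference of -1.55 ± 0.18 (SE, adjusted p = 4.4e-04 in limma). Of 15 berberine bridge enzyme-like oxidases 2 rose and 1 fell (20% called, against 12.9% over all probe sets). AT5G44440 was the one that fell, at 164, 452 and 33.3 in MIF1OE seedlings, against 1289, 1543 and 699 in vector seedlings, a log2 difference of -2.94 ± 0.69 (SE, adjusted p = 0.0176 in limma), and its call was lost without vector array 1 or 2 (adjusted p up to 0.0649). Of 9 beta-glucosidases BGLU19 and BGLU25 rose (22.2% called, against 12.9% over all probe sets). The BGLU25 call was lost in 7 of 15 settings, each setting that left out 1 array among them (adjusted p up to 0.124 in limma). Of 10 SWEET sugar transporters none passed in limma (3 at an unadjusted p under 0.05). SWEET11, a sucrose transporter of the phloem, measured 1163, 510.4 and 788 in MIF1OE seedlings, against 1470.1, 4027 and 1677 in vector seedlings (adjusted p = 0.0604 in limma).

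The effect of MIF1 in darkness was tested against its effect in light. It differed for 118 of 15922 probe sets (0.741%), with 69 differences positive and 49 negative, and 109 of the 118 were also called in darkness. The dark and light effects share no array, but both contrasts share the estimate of spread. With the source, that is the line and replicate number, as a fixed replicate block the count was 211. Leaving out 1 dark array gave 68, 68 and 104 without MIF1OE arrays 1, 2 and 3, and 65, 59 and 60 without vector arrays 1, 2 and 3.

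Wall proteins were among the genes whose rise in darkness was larger than their change in light. AT5G62340, a pectin methylesterase inhibitor-like protein, measured 681, 609 and 557 in dark-grown MIF1OE seedlings, against 97.3, 106 and 85.5 in dark-grown vector seedlings, and 148, 73.1 and 73 in light-grown MIF1OE seedlings and 164, 157 and 227 in light-grown vector seedlings. Its dark minus light difference was 3.50 ± 0.35 (SE, adjusted p = 0.00181 in limma). AT5G10130, related to the pollen allergen Ole e 1, measured 137, 128 and 217 in dark-grown MIF1OE seedlings, against 26.1, 18.2 and 15 in dark-grown vector seedlings, and 40.5, 23.9 and 9.17 in light-grown MIF1OE seedlings and 69.1, 43.3 and 56.4 in light-grown vector seedlings, a difference of 3.75 ± 0.49 (SE, adjusted p = 0.00749 in limma). sks15, a SKU5-like wall protein, differed by 3.22 ± 0.47. In each of the 3 genes the dark MIF1OE arrays were the brightest of the 4 groups. Of 36 peroxidases 6 had a called difference: AT1G30870, AT4G26010, AT3G01190, AT5G17820 and AT2G39040 were positive, at 3.50 ± 0.67, 3.30 ± 0.62, 2.43 ± 0.35, 2.37 ± 0.43 and 2.23 ± 0.43, and AT2G37130 was negative at -2.65 ± 0.48. EXPA7, at 2.01 ± 0.37 (adjusted p = 0.0324), and the extensin AT3G54580, at 2.91 ± 0.60 (adjusted p = 0.0498 in limma), were called too. None of the 18 LEA genes or of the 7 oleosin and cupin genes had a called difference in limma (6 and 4 at an unadjusted p under 0.05), and their medians were 1.75 and 3.33 in darkness and 0.70 and 1.41 in light.

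Among the negative differences were genes that were brighter in dark-grown than in light-grown vector seedlings. AT4G37220 measured 57.7, 67.5 and 29.6 in light-grown MIF1OE seedlings and 60.4, 54 and 28.2 in light-grown vector seedlings, against vector values of 747, 2358 and 1213 in darkness, and its difference was -4.01 ± 0.56 (SE, adjusted p = 0.00871 in limma). AT3G48970 measured 25.5, 39.5 and 31.1 in light-grown MIF1OE seedlings and 55.2, 43.1 and 54.3 in light-grown vector seedlings, and its difference was -2.94 ± 0.26 (SE, adjusted p = 6.9e-04 in limma). ATPMEPCRD measured 36.8, 44.6 and 49.7 in light-grown MIF1OE seedlings and 43.3, 22.4 and 39.2 in light-grown vector seedlings, a difference of -2.69 ± 0.32 (SE, adjusted p = 0.0061 in limma). In all 3 the dark MIF1OE arrays lay between 46.3 and 239.7, closer to the light arrays than the dark vector arrays were. AT1G23130, of the Bet v 1 type, had the opposite layout: it was bright in light, at 1185, 1074 and 1271 in light-grown MIF1OE seedlings and 1419, 1305 and 1687 in light-grown vector seedlings, and dim in dark vector seedlings, at 19.2, 2.52 and 43, with dark MIF1OE values of 443, 167 and 506 in between. Its difference of 4.20 ± 0.72 (adjusted p = 0.0227 in limma) was the largest positive one among genes with 1 name. The dark vector arrays enter both the effect in darkness and the dark-to-light change of vector seedlings, so no relation between these is given.

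**Figure D5:**
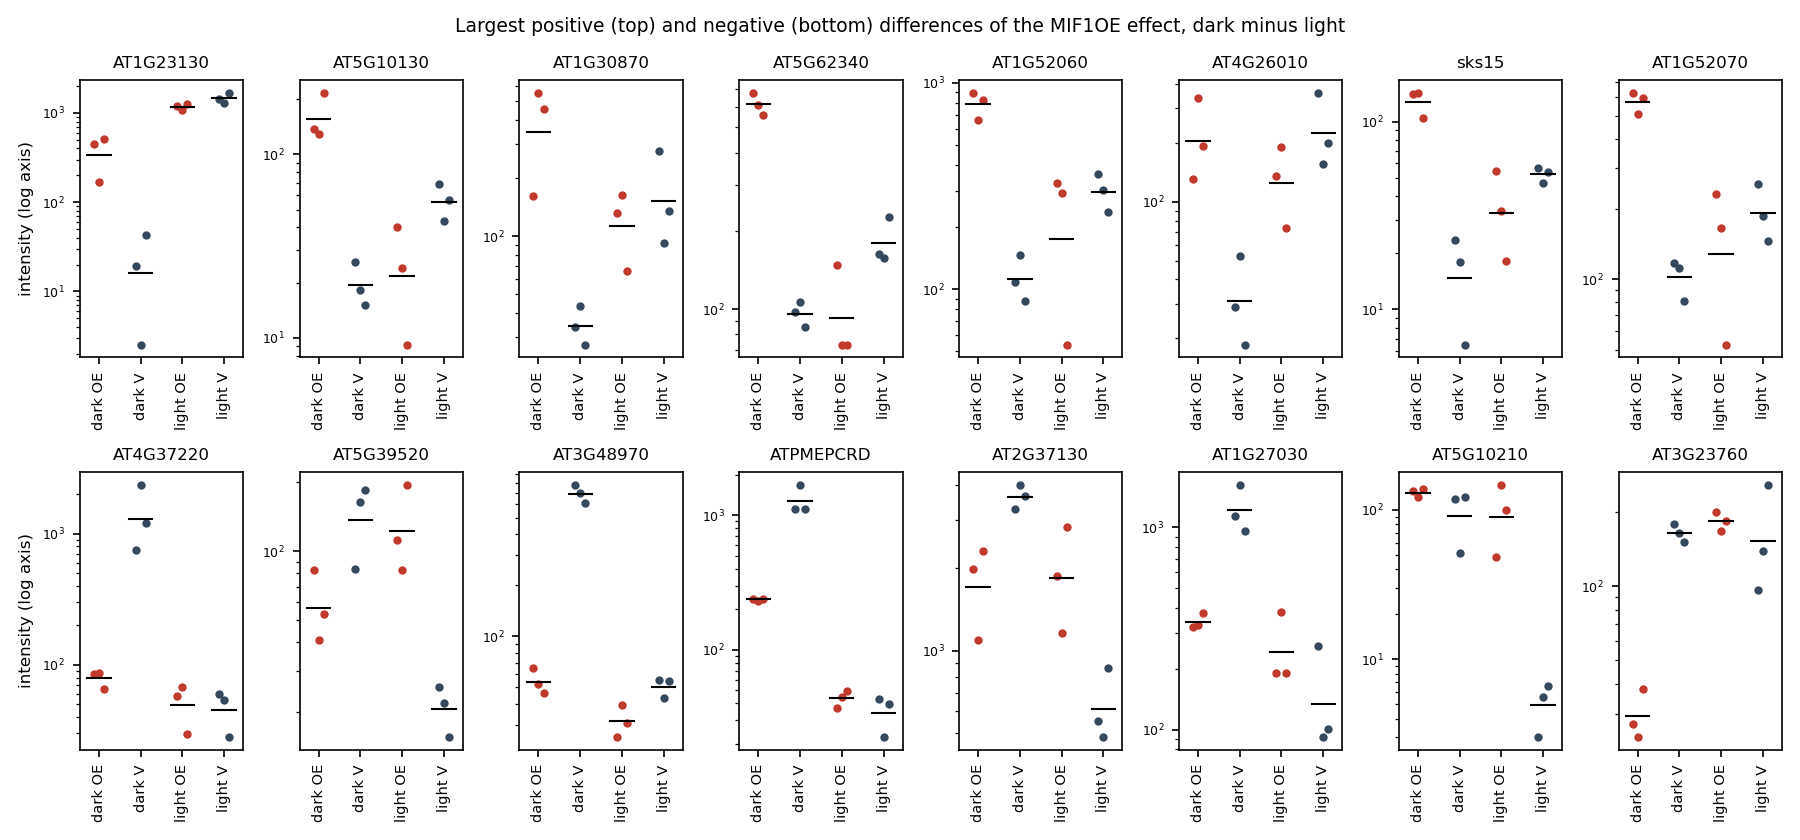
Intensity per array on a log axis in dark MIF1OE, dark vector, light MIF1OE and light vector seedlings (OE and V on the axis) for the 8 genes with the largest positive (top) and the 8 with the largest negative (bottom) called difference of the MIF1OE effect, dark minus light. Red points are MIF1OE and dark points vector arrays, and the bar is the mean on the log2(intensity + 7) scale. AT5G10210 and AT2G37130 in the lower row did not pass in darkness itself.

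The largest changes of all were in probe sets without a gene name in the annotation used here. Probe set 253894_at measured 1218, 734 and 369 in MIF1OE seedlings, against 0.155, 0.299 and 3.39 in vector seedlings, a log2 difference of 6.42 ± 0.36 (SE, adjusted p = 1.3e-06 in limma), and 249082_at measured 4338, 2242 and 996 in MIF1OE seedlings, against 16.9, 48.2 and 7.89 in vector seedlings, a log2 difference of 6.31 ± 0.57 (SE, adjusted p = 1.3e-04 in limma). The largest falls were 264007_at, at 66.6, 139 and 28.8 in MIF1OE seedlings, against 1489.6, 2016 and 1474 in vector seedlings (-4.50, adjusted p = 4.2e-04 in limma), and 259161_at, at 15.9, 43.2 and 8.24 in MIF1OE seedlings, against 941, 283 and 252 in vector seedlings (-4.00, adjusted p = 9.9e-04 in limma). These genes cannot be placed in a function here, and 1033 of the 2052 called probe sets had 1 name.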

How the data were processed

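RNA from 3 MIF1OE and 3 vector samples of dark-grown seedlings was analysed together with 6 light-grown samples. GCOS, the Affymetrix software, gave the linear intensities as deposited, per the submitters' processing notes (version not given in the sources here), and their scaling was kept. Values were taken as log2(intensity + 7), a scale on which dim genes change less than in truth. The 64 control probe sets were removed, as were 6824 others whose mean fell below the 30th percentile. All 12 arrays were fitted with 4 group means in limma 3.58.1 (R 4.3.3; 8 residual and 4.08 prior degrees of freedom), with Benjamini-Hochberg adjustment over 15922 probe sets and a threshold of 0.05. SE are moderated. The number of arrays limits the precision.

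Of 22746 probe sets, 13513 named 1 gene, 503 several and 8730 none here, through the platform annotation and a RefSeq table of TAIR10.1 (13436 matched). Named genes are the 25 largest rises and 25 largest falls (called, not overlapping, 1 gene name), up to 6 called and 3 uncalled genes of each list, the 8 largest dark minus light differences each way, and 2 unnamed probe sets each way. A gene with several probe sets is represented by the brightest in the lists. The members, lists and tests were chosen with earlier results of these data known. Light and dark samples of the same line and replicate number had correlations of residuals of 0.233 to 0.340. For dark MIF1OE and dark vector samples of the same number these were -0.454, -0.239 and 0.253. The main dark minus light test did not pair light with dark samples. No number in the labels pairs MIF1OE with vector samples. Alternatives covered the arrays fitted, filter, pseudocount, scaling, moderation, line block and left-out arrays.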

Additional observations from a re-analysis of the deposited data

Results flagged for a closer look

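The effect of MIF1 differed between darkness and light at 118 probe sets in limma (adjusted p under 0.05 for the dark minus light difference). The genes below had called differences, given as log2 values, dark effect minus light effect.

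The positive ones were AT1G23130 (4.20), AT5G10130 (3.75), AT1G30870 (3.50), AT5G62340 (3.50), AT1G52060 (3.47), AT4G26010 (3.30), sks15 (3.22), AT1G52070 (2.97), AT3G54580 (2.91), AT3G01190 (2.43), AT5G17820 (2.37), AT2G39040 (2.23), EXPA7 (2.01), UGT71C1 (1.97) and GSTU28 (1.48). The jacalin-type lectin AT1G52070 measured 629.5, 509 and 597 in dark-grown MIF1OE seedlings, against 118, 112 and 80.6 in dark-grown vector seedlings, and 232, 166 and 52.4 in light-grown MIF1OE seedlings and 256, 186 and 146 in light-grown vector seedlings.

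The negative ones were AT4G37220 (-4.01), AT5G39520 (-3.40), AT3G48970 (-2.94), ATPMEPCRD (-2.69), AT2G37130 (-2.65), AT1G27030 (-2.61), AT5G10210 (-2.53), AT3G23760 (-2.50), UGT76E2 (-2.21), WAG2 (-2.21), AT5G57760 (-2.18), AT3G06070 (-1.88) and AT2G14900 (-1.59). AT5G39520 measured 82.3, 41.2 and 53.2 in dark-grown MIF1OE seedlings, against 83.6, 164 and 184 in dark-grown vector seedlings, and 112, 83 and 194 in light-grown MIF1OE seedlings and 25.6, 21.7 and 15.5 in light-grown vector seedlings. It fell in darkness by 1.17 and rose in light by 2.22 on the log2 scale (adjusted p = 0.045 and 0.0101 in limma). AT5G10210 measured 133, 122 and 137 in dark-grown MIF1OE seedlings, against 117, 51.7 and 122 in dark-grown vector seedlings, and 48.6, 147 and 99.1 in light-grown MIF1OE seedlings and 3.02, 5.6 and 6.6 in light-grown vector seedlings, and it did not pass in darkness. AT3G23760 measured 27.3, 24.2 and 38 in dark-grown MIF1OE seedlings, against 179, 165 and 152 in dark-grown vector seedlings, and 200.4, 168 and 185 in light-grown MIF1OE seedlings and 96.6, 139.8 and 259 in light-grown vector seedlings.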

How the results depend on the processing

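For MIF1OE against vector in darkness, the count of 2052 was 2418 with the dark arrays alone, 1942 with no filter, 1687 with a 50th percentile filter, 1924 and 2252 with pseudocounts of 1 and 32, 2047 (1032 higher, 1015 lower) after median centring, 2337 after quantile normalization, 2122 with a moderated trend and 1725 with line as a random replicate block. It was 1069 to 1357 with 1 array left out and 452 with line 127 alone, a setting chosen after seeing the data in which the lone array is taken to vary like the other groups. Fewer arrays in the fit are part of how these last settings are built. The 118 dark minus light differences became 105 with no filter, 63 with the 50th percentile filter, 139 with a pseudocount of 32, 165 after quantile normalization, 211 with source as a fixed replicate block, 301 with a random replicate block (added after seeing the data), 59 to 104 with 1 array left out and 27 with line 127 alone. The cause was not tested.

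The LEA median of 1.75 was 1.135 with the 50th percentile filter and 0.894 in line 127. The oleosin and cupin median of 3.33 was 0.466 with that filter, which leaves out dim members, 2.208 with a pseudocount of 32 and 1.63 in line 127. The peroxidase median was 0.517 with a pseudocount of 32, and the expansin median -0.536 with the 50th percentile filter. The tubulin median ranged from -0.768 to -0.51 with 1 array left out, and was -0.854 in line 127, where the chlorophyll synthesis median was -0.155. No direction of these medians reversed, but each setting drew its members from those that passed the main filter. Over the 19 named expansins matched on words, with no filter, the median was 0.014. Of 103 called named genes, 69 kept their call under every planned setting in which they were tested. Of the other 34, 24 lost it only when an array was left out. Of the 50 largest changes 41 kept it where tested. Dim genes such as AT2G28490, LEA18 and PAP85 were left out by the 50th percentile filter, so 14 of the 15 settings tested them. Median centring moved the median of all differences by 0.0225. Promoter motifs, which the plan named, were not run. Intensities carry no detection calls here, so which dim values lie above background is unknown.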
